A study of Homo sapiens with 13 samples.

Results

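The cytosolic ribosomal protein genes encode the proteins of the ribosome in the cytoplasm, and they were followed here in human cells whose RNA polymerase II (Pol II) was either of wild-type speed or slow. The members were chosen by gene name alone, as RPS or RPL followed by a number with at most one A or X, together with RPSA and the P0 to P2 stalk proteins. This gave 76 genes out of 14575 in the series, of which 30 belong to the small (40S) subunit and 46 to the large (60S) subunit. The cells were HEK293 Flp-in TREX, a human embryonic kidney line with an integrated transgene. The transgene encoded an α-amanitin resistant Rpb1, the largest Pol II subunit. It was either wild type (WT, 5 libraries) or had the R749H substitution that slows elongation (4 libraries). The labels of both lines name it AvitagRpb1, that is, with an Avitag. Both lines received doxycycline at 2 µg/ml, which turns the transgene on, for 24 hr according to the labels, and α-amanitin at 2.5 µg/ml for 42 hr, which blocks the endogenous Pol II that both lines still carry. Poly(A) RNA was measured by 3’ READS, in which each read marks the 3’ end of 1 mRNA, so that reads of different genes need no correction for length.

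The 40S subunit reads the mRNA and the 60S subunit joins amino acids and releases the chain through its exit tunnel. Nearly every member is present in 1 copy per ribosome, and the P stalk that recruits translation factors is the known exception. The mRNAs are short and abundant, have short 3’ untranslated regions (UTRs), and start with a run of pyrimidines, the 5’ terminal oligopyrimidine (TOP) motif, through which growth signals control their translation. The genes also have many processed pseudogenes, which are copies of the mRNA elsewhere in the genome.

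Most of these features could be read from the sequences of the members. The 30 bases that end at the gene's main 3’ end, meaning the end with most reads, are shown for the most abundant genes on chromosomes 5 and 9 and for RPLP1, RPS19 and RPL22, whose levels are described further on. They lie in the 3’ UTR, run 5’ to 3’ on the strand of the gene in hg19, and have the poly(A) signal AATAAA in capitals. RPL7A is shown because it was the one tested member with neither AATAAA nor ATTAAA in the 40 bases before its main end.
RPS14 (chr5:149823804-149823833, minus strand): atattttctgttAATAAAttgccttcatgt
RPL7A (chr9:136218251-136218280, plus strand): aaataattgaaataatacaaattttccttc
RPL35 (chr9:127620163-127620192, minus strand): cgcattgtcAATAAAgcacagctggctgag
RPS6 (chr9:19376254-19376283, minus strand): tgagtaacaAATAAAtaagatcagactctg
RPLP1 (chr15:69747855-69747884, plus strand): tataacatgttcAATAAAaagctgaacttt
RPS19 (chr19:42375460-42375489, plus strand): ggttAATAAAttgcctcattcgtaatcctg
RPL22 (chr1:6246279-6246308, minus strand): gactgtcAATAAAatgcgggtttctgggcc

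The other end of the mRNA is shown by the first 20 transcribed bases of 4 members, taken from RefSeq (GRCh38.p14, a later build than that of the reads), with the opening pyrimidine run in capitals. Of 62 members with a RefSeq start, 46 (74.2%) had a start at which C was followed by 4 or more C or T bases. The same held for 5.14% of all 27305 genes with a start in that table and for 8.03% of the 7383 tested genes with one.
RPS14: CTCTCTTTCCggtgtggagt
RPL35: CTCTTTCCCTCggagcgggc
RPLP1: CCCCTTTCCTCagctgccgc
RPS19: CCCTTTCCCCTggctggcag

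The libraries held 2479851 to 10135014 reads within 5 kb of a stop codon in WT and 3863468 to 6475987 in R749H. Library R749H 3 stood apart, with 41033 distinct 3’ ends, and only 6.60% of them rested on one read where the other libraries had 30.05% to 36.2%. Without it 37 members rose in place of 34, of which 30 were shared, and the calls lost were those of RPLP0, RPL35A, RPL39 and RPS27A among the increases and that of RPL22. The mutation lies far from the 3’ end of Rpb1, so these reads cannot check which form a library expressed. Reads at POLR2A, which encodes Rpb1, came to 60.5 to 125 RPM (reads per 1000000 reads, after the scaling described below) in WT and 253 to 520 RPM in R749H. Markers of the line were present for KRT8, KRT18, VIM and INA, PAX2 was at most 25 reads in any library, and NEFM was at most 1 read. VIM was lower in R749H by a log2 change of −0.66 (limma, adjusted p = 0.0194). Markers of other cell types were near 0, at a summed level of at most 1.22 RPM in WT and 0.696 RPM in R749H for the list of 6, of which PTPRC and HBB had no reads.

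Ribosomal protein genes took up a larger share of the reads in R749H than in WT. The share was 30.9%, 34.3%, 33.8%, 33.9% and 32.5% in WT 1 to 5 and 39.6%, 40.1%, 38.4% and 39.6% in R749H 1 to 4. Every R749H library was thus above every WT library, and the lowest R749H share exceeded the highest WT share by 4.07 percentage points. The mean share was 33.1% ± 1.38 (SD, n = 5) in WT and 39.4% ± 0.733 (SD, n = 4) in R749H, a ratio of 1.19. No p was computed for this sum, because the genes were chosen with results of these data known. The 5 most abundant genes held 32.7% to 39.2% of the members' reads in each library, and without them the share still rose from 20.6% ± 1.06 to 25.1% ± 0.333 (SD, n = 5 and 4), without overlap of the libraries.

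Both subunits shared in this difference. Small subunit genes held 15.2% to 15.9% of the reads in the WT libraries and 17.5% to 18.7% in the R749H libraries, a ratio of means of 1.15. Large subunit genes held 15.8% to 18.4% in WT and 20.9% to 21.9% in R749H, a ratio of means of 1.23. Neither subunit overlapped between the lines. The log2 ratio of small to large subunit reads was −0.144 ± 0.0765 (SD, n = 5) in WT and −0.240 ± 0.0552 (SD, n = 4) in R749H, and here the libraries did overlap, with WT from −0.212 to −0.0581 and R749H from −0.309 to −0.195. The ratio of the subunits was therefore not separated beyond the spread of the libraries. Mitochondrial ribosomal protein genes, 77 nuclear genes for the separate ribosome of the mitochondrion, held 0.934% ± 0.0567 of the reads in WT and 0.772% ± 0.0300 in R749H.

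**Figure D1:**
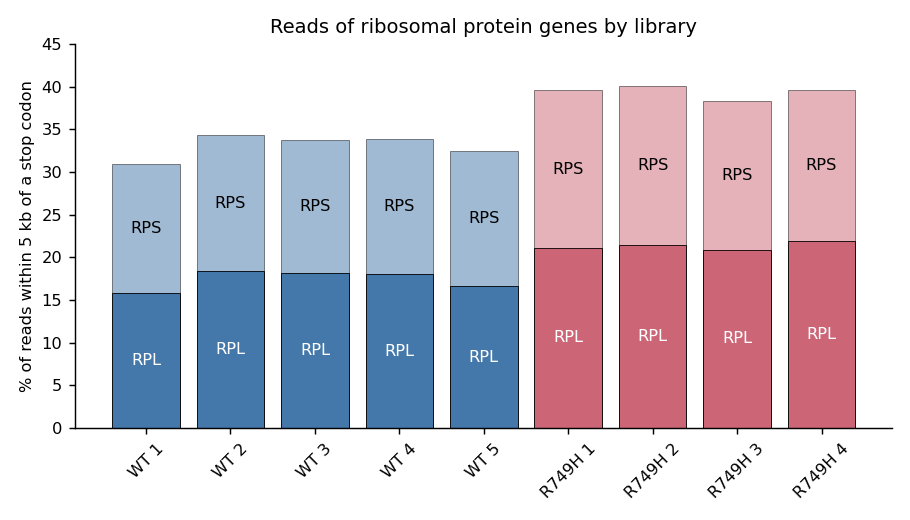
Share of all reads within 5 kb of a stop codon that fell to ribosomal protein genes, in % (vertical axis), for each of the 5 WT (blue) and 4 R749H (red) libraries, with large subunit genes in the lower and small subunit genes in the upper part of each bar. The WT bars reach 30.9% to 34.3% and the R749H bars 38.4% to 40.1%.

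Gene by gene, 34 of the 74 members that could be tested rose in R749H and 1 fell, whereas 10.9% of all 9494 genes tested rose and 12.9% fell (limma on log2 RPM, adjusted p under 0.05). The filter on low reads left out RPS7 and RPL7. The median log2 change was 0.52 over the members and −0.07 over all genes tested, and 68 of 74 members were above 0. In 33 members every R749H library was above every WT library, as in 9.72% of all genes, and in 1 member every R749H library was below, as in 10.1%. Of the small subunit genes, 16 of 29 rose and none fell, with a median log2 change of 0.55. Of the large subunit genes, 18 of 45 rose and 1 fell, with a median log2 change of 0.46. The difference between the subunits was not tested. Without R749H 3, 37 members rose, but without R749H 2 or R749H 4 there were 20 and 22, and without the filter on low reads there were 13.

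The levels below are RPM after TMM scaling, which sets the libraries' bulk of genes equal. The share of reads taken by the members bears on this scale. With plain RPM and no such factors, the median log2 change of all genes was −0.38 and that of the members 0.20, so that the gap between them stayed at 0.58 on the log2 scale under both. Plain RPM left 11 members higher and 1 lower, beside 4.85% of all genes higher and 26.1% lower, so that higher genes made up 15.6% of all calls against 45.8% with TMM factors. Under plain scaling, 57 of 74 members remained above 0. In bulk RNA, a change in mRNA per cell and a change in the share of cells cannot be told apart.

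**Figure D2:**
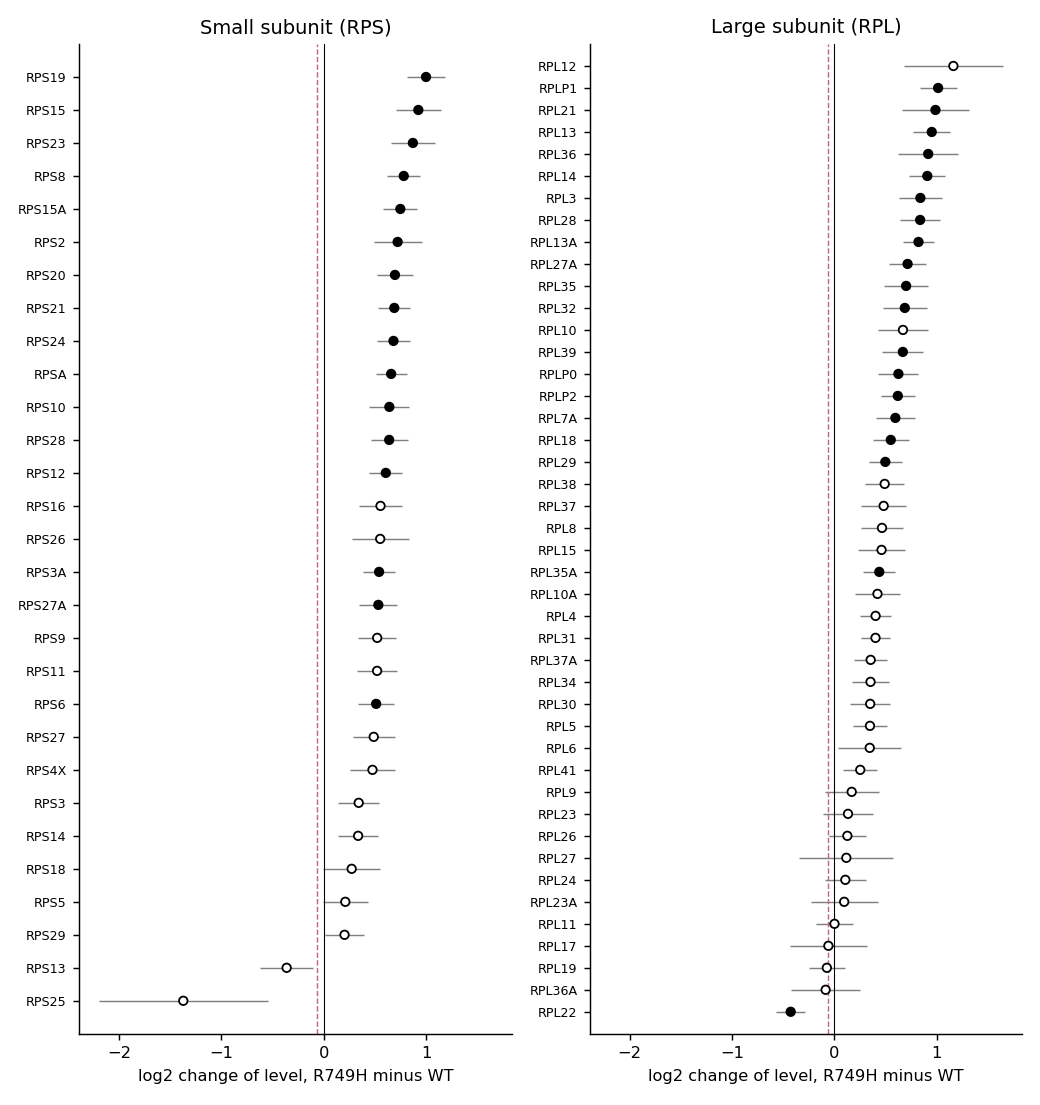
Log2 change of level in R749H minus WT (horizontal axis) for 73 of the 74 tested members, by subunit and in order of size, with bars of 1 SE. Filled points had an adjusted p under 0.05, the black line marks 0 and the dashed line the median of all genes at −0.07. Filled points lie on the right except RPL22.

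The largest increases came from proteins with distinct roles. RPLP1 encodes P1, one of the acidic proteins of the P stalk. Its level was 2659, 2258, 1973, 2243 and 1893 RPM in WT 1 to 5 and 3565, 4311, 5974 and 4162 RPM in R749H 1 to 4. The groups did not overlap, and the log2 change was 1.01 ± 0.18 (SE; limma, adjusted p = 0.000977). All 3 stalk genes rose, RPLP2 by a log2 of 0.62 (limma, adjusted p = 0.0138) and RPLP0 by 0.63 (limma, adjusted p = 0.0282), although the libraries of RPLP0 overlapped between the lines. The call of RPLP0 was lost without scaling factors (limma, adjusted p = 0.240) and without any one of WT 2, WT 4, WT 5, R749H 2, R749H 3 and R749H 4 (limma, adjusted p from 0.0518 to 0.0746). That of RPLP2 was lost without scaling factors (limma, adjusted p = 0.116) and without the filter on low reads (limma, adjusted p = 0.0612).

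RPS19, a protein of the 40S head that is the gene most often mutated in Diamond-Blackfan anaemia, was at 537, 611, 563, 647 and 430 RPM in WT and at 1141, 1289, 771 and 1313 RPM in R749H. Library R749H 3 was the lowest of its group but still above every WT library. The log2 change was 1.0005 ± 0.19 (SE; limma, adjusted p = 0.00136). Of the genes listed for this inherited anaemia, 4 of the 10 tested rose and none fell, with a median log2 change of 0.45. The others that rose were RPS24 (log2 0.68), RPS10 (0.64) and RPL35A (0.44), of which RPL35A lost its call without R749H 3 (limma, adjusted p = 0.0866). Without scaling factors 2 of the 10 rose, and the calls of RPS10 and RPL35A were lost (limma, adjusted p of 0.124 and 0.552). RPS7 had too few reads. Over the 40S head as a whole, 7 of 13 tested genes rose and none fell, with a median of 0.56, and 2 of 13 rose without scaling factors.

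Some changes of a similar size rested on few reads. RPL12, a protein at the base of the stalk, had the largest log2 change in the limma fit, at 1.16 ± 0.48 (SE), but its level was only 1.05 to 9.39 RPM in WT and 5.59 to 12.9 RPM in R749H. The groups overlapped and the change missed the threshold (limma, adjusted p = 0.0889). It passed without WT 2 (limma, adjusted p = 0.0453) or without R749H 3 (limma, adjusted p = 0.0459). The log2 change was 0.69 without WT 5, and 0.91 with edgeR and 0.94 with DESeq2, where RPLP1 had 1.03 and 1.04. RPL21 was also scarce, at 1.92, 4.59, 5.06, 4.37 and 5.25 RPM in WT and 7.83, 8.49, 8.25 and 7.61 RPM in R749H. Its log2 change was 0.99 ± 0.32 (SE; limma, adjusted p = 0.0357), with no overlap, and the call was lost without any one of WT 2, WT 4, R749H 2 and R749H 4. It was also lost without scaling factors (log2 0.68; limma, adjusted p = 0.119), without the filter on low reads (limma, adjusted p = 0.0765) and with ends up to 500 nt only (limma, adjusted p = 0.0520).

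Of the 5 most abundant members, 3 rose. RPS14, a 40S platform protein with the highest mean level, was at 28370, 34536, 30328, 31914 and 27367 RPM in WT and at 40016, 42743, 27593 and 46064 RPM in R749H. Library R749H 3 fell within the WT range, and the log2 change of 0.34 ± 0.20 (SE) missed the threshold (limma, adjusted p = 0.222). RPL7A, at 20488 to 30237 RPM in WT and 38236 to 41091 RPM in R749H, did not overlap and rose by a log2 of 0.60 (limma, adjusted p = 0.0294). RPS6, the substrate of the S6 kinases, rose by 0.51 (limma, adjusted p = 0.0442), also without overlap. RPL35, at the rim of the exit tunnel, rose by 0.70 (limma, adjusted p = 0.0250), but R749H 3 at 20743 RPM lay below WT 2 at 20807 RPM. These 3 calls were lost without scaling factors (limma, adjusted p of 0.147, 0.267 and 0.0953 for RPL7A, RPS6 and RPL35), without the filter on low reads (limma, adjusted p of 0.430, 0.444 and 0.298) and without R749H 1 (limma, adjusted p of 0.0718, 0.113 and 0.0543) or R749H 2 (limma, adjusted p of 0.0832, 0.107 and 0.0856). Those of RPS6 and RPL35 were lost without R749H 4 too (limma, adjusted p of 0.0794 and 0.0744), and that of RPS6 without any one of WT 2 to WT 5 (limma, adjusted p from 0.0560 to 0.0621). RPL8 had a log2 change of 0.47 (limma, adjusted p = 0.102). It passed without R749H 3 (limma, adjusted p = 0.0379) and with DESeq2 (adjusted p = 0.0440). Divided at the median level, 23 of the 37 more abundant members rose, with a median log2 change of 0.60, and 11 of the 37 scarcer ones, with a median of 0.42. The median SE was 0.18 in the former and 0.21 in the latter.

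Other groups were the 5S particle, the exit tunnel and a ubiquitin fusion. In the 5S particle, which RPL5 and RPL11 form with 5S rRNA and which binds MDM2 when ribosome assembly is disturbed, neither gene passed. RPL5 was at 692 to 1051 RPM in WT and 924 to 1169 RPM in R749H (log2 0.35; limma, adjusted p = 0.127). RPL11 was at 423 to 767 RPM in WT and 547 to 671 RPM in R749H, and its log2 change was 0.00 (limma, adjusted p = 0.997), which became −0.32 without scaling factors. Of 8 genes whose proteins lie at the exit tunnel or its rim, RPL35 and RPL39 (log2 0.67) rose and the other 6 did not pass. The median over the 8 was 0.26. The call of RPL39 was lost without R749H 3 (limma, adjusted p = 0.0536) and without scaling factors (limma, adjusted p = 0.145). RPS27A, which is made as a fusion to ubiquitin, was at 161 to 310 RPM in WT and 308 to 358 RPM in R749H (log2 0.53; limma, adjusted p = 0.0445). Its call was lost with edgeR (adjusted p = 0.0564) and without scaling factors (limma, adjusted p = 0.345). It was also lost without any one library other than WT 5 and R749H 1 (limma, adjusted p from 0.0630 to 0.0998).

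RPL22 was the one member that fell. Its protein binds RNA in the 60S subunit and has a close paralog, RPL22L1. RPL22 was at 395, 439, 465, 418 and 452 RPM in WT and at 319, 326, 326 and 318 RPM in R749H. The R749H libraries lay close together and below every WT library, and the log2 change was −0.43 ± 0.14 (SE; limma, adjusted p = 0.0380). The call was narrow and depended on the setting. It held without scaling factors (log2 −0.74, limma, adjusted p = 0.000688) and with DESeq2 (log2 −0.42, adjusted p = 0.00608). It was lost with edgeR (adjusted p = 0.0521), with a replicate block (limma, adjusted p = 0.0765), with 3’ ends up to 500 nt only (limma, adjusted p = 0.0730) and when any one of WT 2, WT 3, WT 4 and the 4 R749H libraries was left out (limma, adjusted p from 0.0598 to 0.104), while the log2 change lay between −0.49 and −0.40 under these settings.

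The paralog moved the other way. RPL22L1 was at 67.2, 62.8, 51.7, 58.1 and 53.2 RPM in WT and at 308, 202, 209 and 152 RPM in R749H. The lowest R749H library was above the highest WT library, and the log2 change was 1.85 ± 0.20 (SE; limma, adjusted p = 1.43e-05). RPS27L, the paralog of RPS27, was at 70.5 to 118 RPM in WT and 165 to 235 RPM in R749H, with a log2 change of 1.18 ± 0.18 (SE; limma, adjusted p = 0.000410). RPS27 itself had a log2 change of 0.49 (limma, adjusted p = 0.0933). These were 2 of 6 tested paralogs. The others, RPL7L1, RPL26L1, RPL36AL and RPL39L, did not pass, and their log2 changes were 0.46, −0.28, 0.04 and −2.14.

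**Figure D3:**
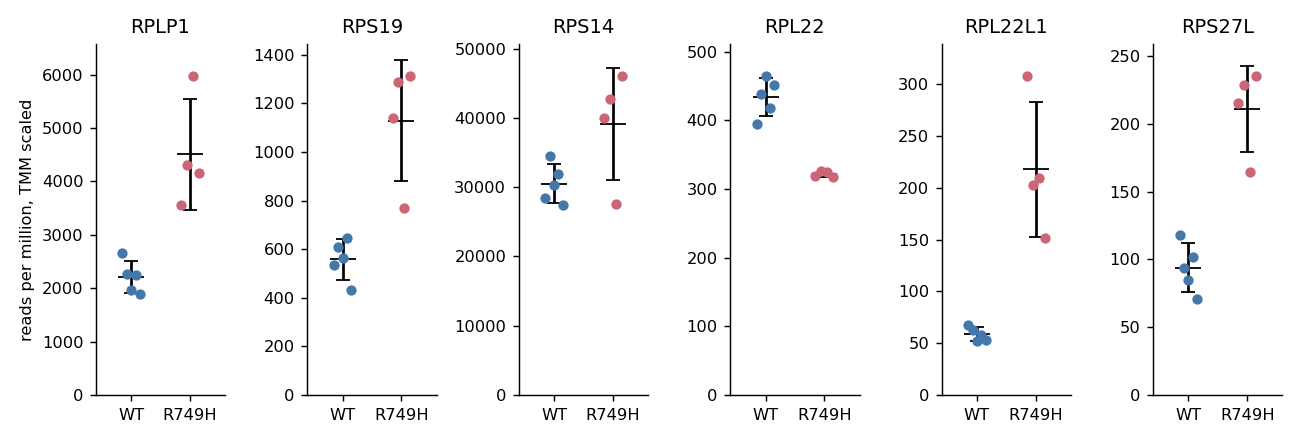
Levels in RPM after TMM scaling (vertical axes, each from 0) of 4 members and 2 paralogs outside the members, with a point for each of 5 WT (blue) and 4 R749H (red) libraries and bars of the mean ± SD. RPLP1, RPS19, RPL22L1 and RPS27L are higher in every R749H library, RPL22 is lower in every R749H library, and 1 R749H library of RPS14 lies within the WT range.

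The remaining 5 members with negative values had no call. RPS25 had a log2 change of −1.37 ± 0.82 (SE; limma, adjusted p = 0.237), on levels of 1.67 to 3.52 RPM in WT and 0 to 2.74 RPM in R749H. The 0 was in R749H 3, and without that library the log2 change was −0.23. RPS13 was at 11.0 to 21.3 RPM in WT and 8.35 to 15.9 RPM in R749H (log2 −0.36; limma, adjusted p = 0.330), and its log2 change was −0.14 without R749H 1. RPL36A had a log2 change of −0.09 (limma, adjusted p = 0.881), on 3.73 to 8.96 RPM in WT and 3.84 to 7.65 RPM in R749H. RPL19 and RPL17, both at the exit tunnel, had log2 changes of −0.07 and −0.06.

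Genes outside the naming rule that belong to the same pathway were given from lists. FAU (eS30) and GNB2L1 (RACK1) are ribosomal proteins under other names. FAU rose from 2426 ± 346 RPM (SD, n = 5) to 4083 ± 286 RPM (SD, n = 4; log2 0.76; limma, adjusted p = 0.00330). GNB2L1, at 3430 to 5115 RPM in WT and 5448 to 6740 RPM in R749H, had a log2 change of 0.45 and missed the threshold (limma, adjusted p = 0.0644). It passed without R749H 3 (limma, adjusted p = 0.0478) and with DESeq2 (adjusted p = 0.0240). Of 16 tested genes of other TOP mRNAs, such as translation factors, 1 rose and 1 fell, with a median log2 change of 0.11. Of 30 ribosome assembly factors, 3 rose and 1 fell, with a median of 0.06. Of 13 genes of RNA polymerase I subunits and its initiation factors, 1 fell, with a median of 0.27. Of 73 mitochondrial ribosomal proteins, 9 rose and 8 fell, with a median of −0.03. Without scaling factors the medians of these lists were −0.20, −0.25, −0.05 and −0.34, in the same order, beside −0.38 over all genes. The genes that then rose were 0, 2, 0 and 2, and those that fell were 4, 4, 3 and 17. Among the members, a TOP start was found in 26 of 30 that rose and 20 of 31 that did not, which is a description of genes that share a promoter type.

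The change of each member was set beside those of its neighbours in the genome. For each member, the median log2 change of all other tested genes within 5 Mb was taken, over 12 to 185 genes. It correlated with the member's own log2 change across 74 members (Pearson's r = 0.37, Spearman's rho = 0.40), with no p given because neighbouring members share these genes and both values come from the same libraries. A limit of −0.4 was set after the values were seen. Of 10 members with a neighbourhood at or below it, 2 rose and 1 fell, and their median log2 change was 0.11. Of the 64 others, 32 rose and none fell, with a median of 0.54. Within the groups the correlation was weaker, with r = 0.06 and rho = −0.16 over the 10 and r = 0.20 and rho = 0.29 over the 64. RPL26, RPL27, RPL23A, RPL23 and RPL19 on chromosome 17, RPL17 on chromosome 18, and RPL11 and RPL22 on chromosome 1 were in the former group. RPS15A and RPS23 were too, and they rose nevertheless by a log2 of 0.75 and 0.87. None of the 6 members on chromosome 17 passed, from −0.07 to 0.49. For RPL22, the 77 neighbours had a median of −0.42, close to its own change. Measured against its own neighbourhood, the median member was higher by 0.65 in the group of 10 and by 0.59 in the group of 64. The part of the neighbourhood in these results was not tested.

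**Figure D4:**
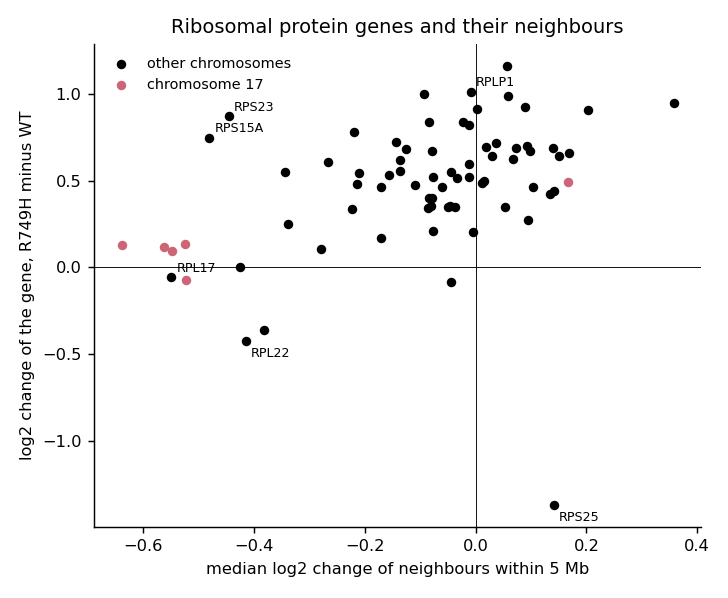
Log2 change of each of 74 members (vertical axis) against the median log2 change of the other genes tested within 5 Mb (horizontal axis), R749H minus WT, with the 6 members on chromosome 17 in red. Most points lie above 0, and 5 of the 6 red points lie at the left, with neighbourhoods under −0.5 and own changes from −0.07 to 0.13.

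The levels themselves spanned a wide range. RPS14 had 33914 RPM as a mean over the 9 libraries, before TMM scaling, followed by RPL7A (31690), RPL8 (23152), RPL35 (22561) and RPS6 (21307). RPS7 had 0.422, RPL7 1.07, RPS25 2.12, RPL17 4.64 and RPL36A 5.45 RPM. The median member had 784 RPM, 20 members made up 83.5% of the members' reads, and 7 members were below 10. Some of the lowest values were in members with features that bear on where a read can be placed. Levels of different members are therefore not read here as levels of mRNA. In 9 of 74 tested members a splice junction lay less than 77 nt, the length of a read, before the main end, as in 0.215% of all genes tested. In 17 of 74 the last 30 nt of the mRNA occurred more than once in the genome, against 2.72% of all genes tested. Of all 76 members, 4 had both a junction within 77 nt and another locus with at most 3 mismatches over those 77 nt, and all 4 were among the 20 lowest, at 2.12 to 15.7 RPM. The 35 with such a locus alone had a median of 546, the 5 with a junction alone 781 and the 32 with neither 1539 RPM. The separation was incomplete. RPL7A had 14 such loci and ranked second, whereas RPL21 and RPL7 had none and were among the 6 lowest. For RPL7 the loci were counted at an end 522 nt after the stop codon that held 21.0% of its few reads. No other end of RPL7 was searched for copies. Of the members with neither feature 17 of 31 tested rose, and of those with another locus but no junction 15 of 34 rose. How reads with several matches were treated is not given in the sources used here, and its part in the levels was not tested.

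The 3’ ends of the members lay close to the stop codon. The main end was a median of 53 nt after it over the 74 tested members (quartiles 40 and 73 nt), and 719 nt (quartiles 281 and 1648 nt) over all genes tested. It was within 100 nt in 61 of 74 members and in 7.74% of all genes. The nearest were RPL13 at 23 nt, RPS12 at 25 nt and RPL10A at 30 nt. The farthest were RPL15 at 1338 nt, RPS3 at 823 nt and RPL7 at 522 nt, and in RPS3 and RPL7 an intron lies between the stop codon and the end, since distances were counted along the genome. AATAAA stood in the 40 nt before the main end in 28 of 29 small subunit and 35 of 45 large subunit genes, beside 67.4% of all genes. ATTAAA, counted where AATAAA was absent, stood in 1 and 9, beside 16.7% of all genes. Over all genes, 15.9% had neither.

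Members also used few ends. The effective number of ends is the number of equally used ends that would give the same chance for a pair of reads to share an end. Its median over 68 members was 1.96 in WT and 1.95 in R749H, and over 5638 genes it was 2.34 and 2.28. The main end held a median of 66.95% of a member's reads and 56.9% over all genes. Ends within 4 nt of it held 91.5% and 75.6%. The most uniform were RPL3 (1.01), RPS21 (1.01) and RPL39 (1.01), and the most spread were RPL22 (6.33), RPSA (5.64) and RPL23 (5.44), as means of WT. RPL22 had a main end at 453 nt that held 27.99% of its reads, and it had 29.9% of its reads within 500 nt, against a median of 99.96% over the members.

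**Figure D5:**
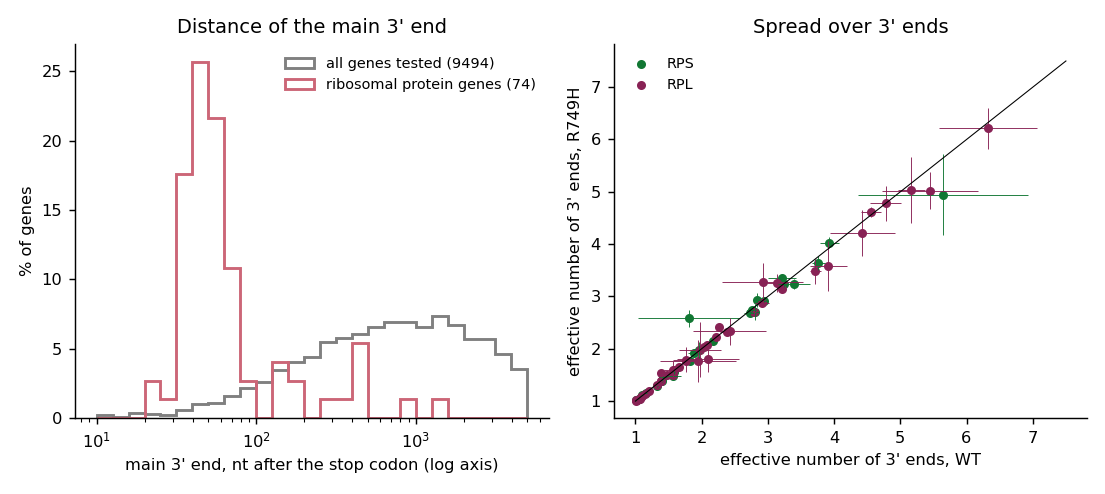
Left, distance of the main 3’ end from the stop codon in nt (log axis) for the 74 tested members (red) and all 9494 genes tested (grey), in % of genes. Right, effective number of 3’ ends in R749H against WT for 68 members, as mean ± SD of 4 and 5 libraries, with the line of equality. Members peak near 53 nt, and most points lie on the line.

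The use of 3’ ends was compared between the lines, both across a gene and within clusters of closely spaced ends. No member passed in any of 3 measures of this. The first was the log2 odds of reads downstream of the gene's median end, where upstream movement gives a negative value. No call was made among 73 members, beside 0.0515% of 7760 genes, and 4 members had an unadjusted p under 0.05, beside 9.56% of genes (limma). The median was −0.06 over the members and −0.09 over all genes, and 46 of 73 members were below 0, beside 58.1% of genes. In RPL31, at the exit tunnel, 4.43%, 4.90%, 5.28%, 5.91% and 5.67% of reads lay downstream of its main end at 41 nt in WT and 11.9%, 8.83%, 12.5% and 6.39% in R749H. All R749H libraries were higher, and the log2 odds rose by 0.95 ± 0.26 (SE) without reaching the threshold (limma, adjusted p = 0.306). RPS13 had 10.9% to 49.2% downstream in WT and 39.7% to 64.2% in R749H, on 48 to 160 reads a library (log2 odds 1.86; limma, adjusted p = 0.414). RPL3 had reads downstream in WT 4 (0.503% of 199 reads) and WT 5 (1.03% of 97 reads) and in no other library. Its log2 odds of −1.06 (limma, adjusted p = 0.458) thus rested on very few reads. RPL37A, the remaining gene with an unadjusted p under 0.05, had 0.595% to 0.746% downstream in WT and 0.433% to 0.547% in R749H (log2 odds −0.48; limma, adjusted p = 0.458), and it is named here after its values were seen. Among the scarce genes, RPL12, RPL27 and RPL36A had values of −0.99, −0.74 and 0.91, with adjusted p of 0.650 or more (limma).

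The second measure was the effective number of ends. No call was made among 68 members, beside 0.0355% of 5638 genes, and 3 members had an unadjusted p under 0.05, beside 9.03% of genes (limma). RPL31 went from 1.33, 1.39, 1.40, 1.44 and 1.34 in WT to 1.595, 1.56, 1.59 and 1.43 in R749H, and R749H 4 lay below WT 4 (log2 0.16 ± 0.05; limma, adjusted p = 0.303). RPS13 was at 1.26 to 3.03 in WT and 2.37 to 2.76 in R749H (log2 0.60; limma, adjusted p = 0.547). RPL11, named after its values were seen, was at 2.21 to 2.34 in WT and 2.38 to 2.47 in R749H (limma, adjusted p = 0.428). The largest decreases were in RPL14 and RPSA, with log2 values of −0.19 and −0.17, and RPL10A had 0.18 (limma, adjusted p of 0.787 or more).

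The third measure was the mean position of reads within the gene's main cluster of at least 4 common ends. Most members had no such cluster, and 14 could be tested. No call was made among them, and 0% of all 810 genes tested passed, with 1 member and 5.93% of genes at an unadjusted p under 0.05 (limma). The mean position was further upstream in R749H in 8 of 14 members and in 54.7% of genes, and the median change was −0.02 nt for both. By subunit it was further upstream in 2 of 7 small and 6 of 7 large subunit genes, with medians of 0.003 and −0.03 nt. This difference was not tested. RPS29 had the largest upstream value. Its reads in the cluster at 89 to 94 nt had a mean position of 91.0, 91.0, 91.0, 91.0 and 91.1 nt in WT and 90.8, 90.8, 90.7 and 91.0 nt in R749H, a change of −0.19 ± 0.07 nt (SE; limma, adjusted p = 0.578). RPS3A had −0.11 nt, and the largest downstream values were those of RPL24 (0.22 nt), RPSA (0.16 nt) and RPS27 (0.10 nt). These sizes are fractions of a nucleotide, smaller than the distance between adjacent ends.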

How the data were processed

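3’ READS libraries (5 WT and 4 R749H) were used, and 4 eNETseq libraries are not analysed here. The authors removed 4 random nt and leading Ts from each read, cut reads longer than 77 nt, aligned them by bowtie (Bowtie2 2.3.2 in the submitters' processing notes) to hg19 without mismatches in the first 30 nt, required non-templated As, removed mitochondrial reads and assigned each 3’ end to the closest CCDS stop codon no more than 5 kb away. The paper gives 12 to 16 hr of doxycycline and the labels 24 hr. The deposited signal values are reads per 3’ end which the authors brought to a total of 7 M per library. Dividing by each library's smallest step gave whole reads for 100% of values, and summed reads matched the authors' pooled values at all 176030 WT and 134734 R749H ends. The study calls the replicates biological and the labels only number them, and p-values measure the spread between these libraries. Replicates of a group differed by more than counting noise.

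Reads were summed by gene name and tested with limma 3.58.1 (trend) on log2 RPM with a prior count of 0.5, TMM factors and filterByExpr. Values of 3’ ends were tested with limma where a gene had a mean of at least 20 reads (shift), or at least 20 reads in every library (effective number, from the unbiased Simpson index, and cluster position). Common ends exceeded 5% of the main end in both pooled lines and were joined within 4 nt. Benjamini-Hochberg adjustment ran over all genes tested, with 0.05 as the threshold. Since the values are scaled signal, edgeR 4.0.16 and DESeq2 1.42.0 on the recovered reads were alternatives. Copies of the last 30 and 77 nt of each mRNA were counted in GRCh37 with GENCODE transcripts. The tests of gene level, shift, effective number and cluster position were also run on simulated data with known changes, and the other steps were not. The members and lists were chosen with earlier results of these data known. Members were named for the 5 highest and 5 lowest levels, the 4 largest log2 changes of level each way, the 3 nearest and farthest main ends, the 3 highest and lowest effective numbers, the 3 largest changes of each 3’ end measure each way, and as examples of role groups. Some items are not reported here.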

Additional observations from a re-analysis of the deposited data

Results flagged for a closer look

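Among the shares and the levels and 3’ end values of the named genes, 70 tests looked for a library far from the rest of its group. They flagged 2 of the values. Chance flags about 1 in 20 groups, so these flags are not above that rate. RPL21 was at 1.92 RPM in WT 1, below the 4.37 to 5.25 RPM of the other WT libraries, and without WT 1 its log2 change was 0.73 (limma, adjusted p = 0.0458). The mean position of RPS27 reads in its main cluster was 59.5 nt in WT 5 and 59.7 to 59.8 nt in the other WT libraries.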

How the results depend on the processing

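The number of members that rose was 34 and lay between 31 and 42 with RLE factors, TMM factors from other genes, a prior count of 0.1, edgeR, DESeq2, ends in the window of 1 gene and ends up to 500 nt. It was 11 without scaling factors and 13 without the filter on low reads, and the cause of the latter was not tested. Without each library in turn it was 20 to 37, with 20 without R749H 2, 22 without R749H 4 and 37 without R749H 3. RPL22 alone fell, and the count of 1 became 0 with edgeR, ends up to 500 nt and the replicate block, and 0 to 1 without single libraries. The median log2 change was 0.20 without factors and 0.46 to 0.60 without single libraries. No setting gave a call in the 3 measures of 3’ ends, and leaving out single libraries gave 0 to 0.

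With ends in the window of 1 gene only, which removes RPL36, RPL41 and RPL10A, the R749H share was 38.7% and the log2 ratio of small to large subunit reads became 0.0212 in WT and −0.0671 in R749H. With ends up to 500 nt, which removes more reads of other genes, the shares were 41.8% in WT and 48.0% in R749H. Without single libraries the share was 32.8% to 33.6% in WT and 39.2% to 39.8% in R749H, and the log2 ratio −0.17 to −0.13 and −0.25 to −0.22.

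Small values changed sign. The log2 change of RPL11 was −0.32 without factors, −0.0213 without the filter, −0.0302 with edgeR, −0.0193 with DESeq2, −0.071 with ends up to 500 nt and −0.12 to 0.0909 without single libraries. That of RPL36A was −0.28 to 0.11 without single libraries, and its log2 odds of downstream ends −0.19 to 1.28. The log2 odds of RPL27 became 0.16 with division at the midpoint.

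Replicates 1 to 4 of the lines share numbers but deviated together no more than others (r from −0.07 to 0.05 over genes), and not every library correlated best with its own number, so the numbers do not pair the libraries. With the replicate block, 35 members rose and 0 fell, and no member passed in the 3’ end measures. Depth limits the scarce members: 7 had fewer than 10 RPM.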
